A study of Mus musculus with 17 samples.

Results

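AA465934 (ENSMUSG00000093483) is a noncoding gene on mouse chromosome 11 whose RNA was present at 2 separate levels in the frontal cortex libraries of this series. It was chosen by its measured FPKM (fragments per kilobase, a read count scaled by transcript length and library size) in every library, so the 2 levels themselves are given as a description, with no test. It is 1 of 46073 genes with a value in the files, and 1 of the 19186 that passed a filter on low values, which asked for at least 0.5 FPKM in at least 3 libraries. The mice were male FVB/N, and the study used a Tet-off pair of transgenes, in which a CamK driver active in forebrain excitatory neurons switches on a transgene for the microRNA miR-211 and doxycycline blocks the driver. The dTgDox group (n = 3) had the dTg-211 genotype, which holds both transgenes, and received doxycycline for 4 days. The dTg group (n = 7) had the same genotype without doxycycline. The Ct group (n = 6) had the CamK driver alone, which dTg and dTgDox mice carry as well. No Ct mice were given doxycycline, so the drug and the loss of driver activity cannot be told apart.

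Host genes of small nucleolar RNAs are transcribed by RNA polymerase II, and the small RNA is cut out of an intron after splicing. Many C/D box small nucleolar RNAs, though not all, guide the methylation of ribosomal RNA. The spliced exons of a noncoding host are often a by-product that is turned over quickly. In the annotation used here AA465934 is a processed transcript with no stated function. The C/D box gene Snord7, whose target was not examined here, lies inside an intron of AA465934.

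In the GENCODE M21 annotation of the GRCm38 build, AA465934 spans 2934 bases of the + strand, from 83291699 to 83294632, with 5 annotated transcripts of 308 to 471 bases. The longest span belongs to a transcript of 3 exons and 383 bases in all (ENSMUST00000177150.1). Snord7 (97 bases) lies in its second intron on the same strand. Slfn14, a member of the Schlafen family, lies 4972 bases before AA465934 on the - strand, and Ap2b1, a subunit of the clathrin adaptor AP2, starts 4391 bases after it on the + strand. Whether the reads were counted by strand is not given in the sources used here, so reads from overlapping or adjoining genes of the 2 strands cannot be told apart. The sequences of the promoter, the 3 exons of that transcript and the small RNA in its intron follow, to show what the locus holds. The files give 1 value for the gene, and which of its transcripts it stands for is not known. The promoter is from RefSeq (GRCm38.p6) and the other sequences are from GENCODE M21 transcripts. Capitals mark the CACGTG and ATTGG letters in the promoter, the ATTAAA polyadenylation hexamer in exon 3, and the C box (ATGATGA) and every CTGA, the letters of the D box, in Snord7.
AA465934 promoter (chr11:83291449-83291748, + strand): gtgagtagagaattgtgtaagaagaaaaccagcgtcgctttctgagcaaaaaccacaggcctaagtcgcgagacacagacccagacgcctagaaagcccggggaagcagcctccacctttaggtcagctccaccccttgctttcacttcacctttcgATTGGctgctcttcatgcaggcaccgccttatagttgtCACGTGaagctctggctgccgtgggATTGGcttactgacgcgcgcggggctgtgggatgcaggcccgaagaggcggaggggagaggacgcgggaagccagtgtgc
exon 1 (chr11:83291699-83291833, + strand): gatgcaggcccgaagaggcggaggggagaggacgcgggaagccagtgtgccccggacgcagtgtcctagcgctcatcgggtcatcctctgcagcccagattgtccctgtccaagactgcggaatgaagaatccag
exon 2 (chr11:83291967-83292097, + strand): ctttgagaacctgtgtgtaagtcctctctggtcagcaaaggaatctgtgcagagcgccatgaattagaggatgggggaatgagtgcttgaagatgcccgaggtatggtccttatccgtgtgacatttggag
exon 3 (chr11:83294515-83294631, + strand): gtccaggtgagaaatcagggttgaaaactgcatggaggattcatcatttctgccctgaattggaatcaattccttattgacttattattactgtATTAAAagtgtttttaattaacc
Snord7 (chr11:83294304-83294400, + strand): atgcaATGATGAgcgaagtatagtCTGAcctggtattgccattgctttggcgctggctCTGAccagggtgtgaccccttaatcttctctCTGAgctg

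In the promoter window, which runs from 250 bases before to 50 bases after the annotated start, CACGTG (its own reverse complement, an E-box) was found 55 bases before the start and CCAAT, searched on both strands and read here as ATTGG, at 93 and 30 bases before it. CACGTG is held by 7.15% and CCAAT on either strand by 37.4% of 32851 mouse promoter windows of this length. The window has a GC content of 58% and 18 CpG dinucleotides, against a median of 7 over all windows, and 29.7% of windows hold as many or more. These matches are descriptions of the letters and were not set against any binding data.

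**Figure D1:**
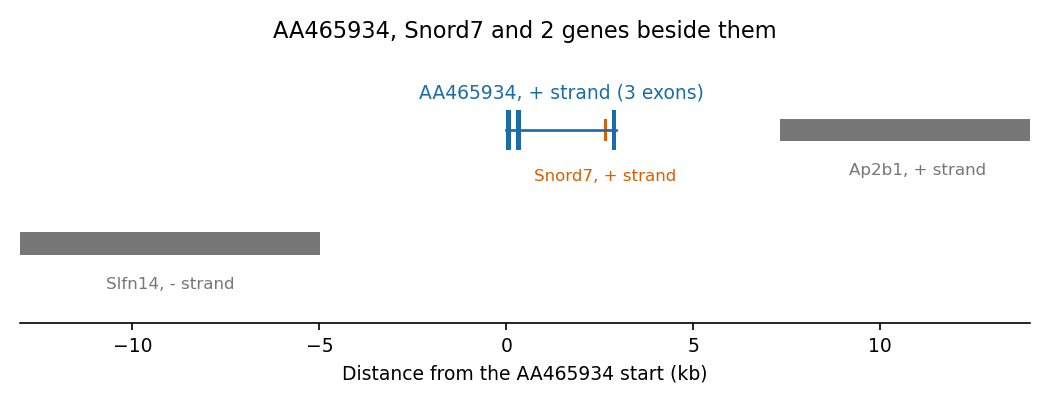
Map of AA465934, Snord7, Slfn14 and Ap2b1, drawn to scale from the annotation, with the distance from its start in kb on the horizontal axis and genes of the + strand above those of the - strand. Blue boxes are the 3 exons, the orange box is Snord7 in the second intron, and grey bars are Slfn14, 4972 bases before AA465934, and Ap2b1, 4391 bases after it; other genes are not drawn.

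AA465934 had 7.26, 8.76 and 5.82 FPKM in dTgDox replicates 1 to 3. In dTg replicates 1 to 7 it had 61.3, 56.4, 99.6, 94.7, 85.4, 94.0 and 40.5 FPKM. In Ct replicates 1 to 6 it had 6.94, 7.22, 49.4, 89.8, 93.5 and 5.21 FPKM. All 3 dTgDox libraries were therefore low, all 7 dTg libraries were high, and Ct held 3 libraries of each kind, with replicates 3, 4 and 5 high and replicates 1, 2 and 6 low. By group the level was 7.28 ± 1.47 FPKM in dTgDox (SD, n = 3), 76.0 ± 23.0 in dTg (SD, n = 7) and 42.01 ± 41.9 in Ct (SD, n = 6), and the Ct mean fell where no Ct library lay.

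The 10 high libraries ranged from 40.5 to 99.6 FPKM, with a median of 87.6, and the 6 low libraries from 5.21 to 8.76 FPKM, with a median of 7.08. The library just inside the high level was dTg replicate 7, at 40.5 FPKM, and the one just inside the low level was dTgDox replicate 2, at 8.76 FPKM, a ratio of 4.62. On the log2(FPKM + 0.5) scale that gap was 2.15, and the next largest step between libraries in order of level was 0.47. Within Ct alone the ratio of the lowest high to the highest low library was 6.84, a gap of 2.69 on the same log2 scale. The spread inside each level was smaller: the highest value was 2.46 times the lowest among the high libraries and 1.68 times among the low ones. The high libraries were themselves uneven, with 4 at 40.5 to 61.3 FPKM (Ct replicate 3 and dTg replicates 1, 2 and 7) and 6 at 85.4 to 99.6 FPKM. The low level was above 0 in every library. In bulk tissue, fewer cells with the transcript and less transcript per cell cannot be told apart.

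**Figure D2:**
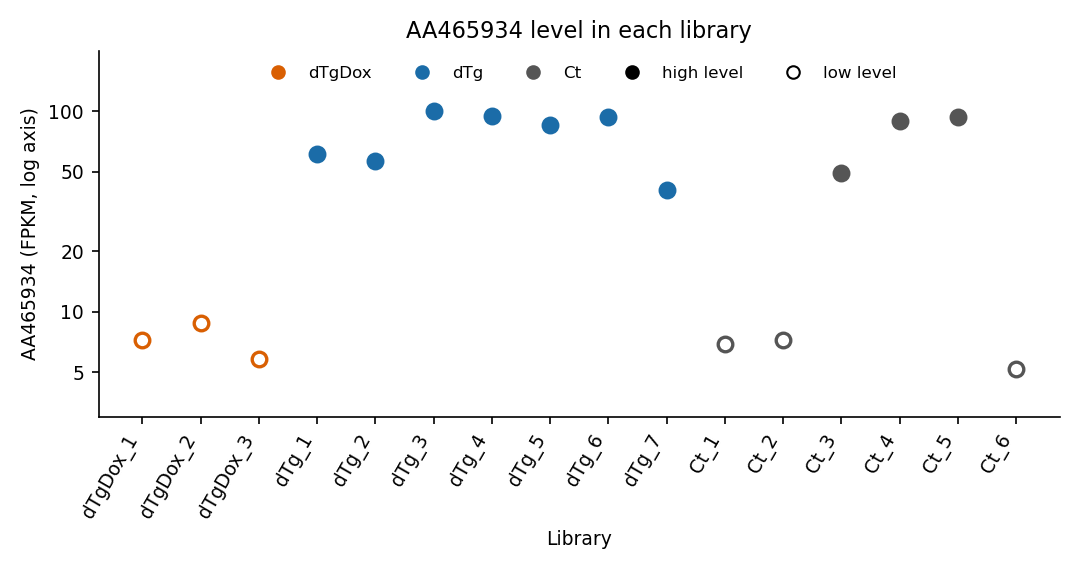
AA465934 in each of the 16 distinct libraries, in FPKM on a log axis, with dTgDox, dTg and Ct from left to right, filled points for the high level and open points for the low level. All 6 open points lie between 5.21 and 8.76 FPKM and all 10 filled points between 40.5 and 99.6 FPKM, with nothing in between.

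At its high level AA465934 was an abundant RNA per length. It lay above 86.5% to 95.4% of the 19186 genes that passed the filter and ranked 4 to 8 among 327 genes of its annotated class, processed transcripts. At its low level it lay above 42.9% to 54.1% of genes and ranked 43 to 66 in the class. The high and low Ct libraries were set by AA465934 itself, so its place among other genes by their gap is only a description. Outside the classes of small RNAs, no gene of the 19186 had a wider gap between these libraries. The next was 2610507I01Rik, a noncoding gene on the same chromosome, with a gap of 2.40 in the opposite direction, and the third had 1.505. All 10 genes with wider gaps were small RNAs: 4 small nucleolar RNAs, 3 microRNA genes, 2 small nuclear RNAs and 1 ribosomal RNA.

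Snord7, the small RNA gene in its intron, overlapped between the 2 levels, at values too near the floor to compare them. It was listed at 0, 27.2 and 0 FPKM in dTgDox replicates 1 to 3. In dTg replicates 1 to 7 it had 0, 15.5, 16.5, 64.7, 99.7, 29.1 and 32.1 FPKM. In Ct replicates 1 to 6 it had 14.97, 15.9, 17.9, 0, 16.1 and 16.9 FPKM. After scaling by relative depth, the values above 0 were 1.0 to 1.08, 1.96 to 1.99, 4.08 and 5.65 times the smallest of them. Most thus stood at or near whole multiples of it, as a few reads per library would. Steps of this kind can neither show nor exclude a difference between the levels. Libraries were made from polyadenylated RNA, which mature Snord7 is not, and the high and low libraries of AA465934 overlapped in Snord7.

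The values came from 16 distinct libraries, since the file labelled NTg (genotype PTRE-miR-211, without CamK) repeats dTg replicate 1 for all 46073 genes and was not used. Summed FPKM was 595615 to 695518 per library, 15762 to 16085 genes had at least 1 FPKM, and relative depth, read from 1-read steps in single-exon genes, was 0.88 to 1.20. The number of reads is not known, so no counting interval is given. The dTg replicate 1 library stood apart. Its mean log2(FPKM + 0.5) over 8 cerebellar marker genes was 7.78, against 2.44 or less in the other dTg libraries, 1.43 or less in dTgDox and 1.497 or less in Ct. Its mean over 9 markers of cortical excitatory neurons was 1.99, against 4.95 to 5.27 in the other dTg libraries. AA465934 was at its high level in that library too, at 61.3 FPKM. The dTgDox libraries also differed in makeup, with 8 hippocampal markers averaging 3.85 to 4.04, against 0.97 to 1.17 in dTg replicates 2 to 7 and 0.88 to 1.37 in Ct, and 9 cortical excitatory markers averaging 4.44 to 4.80, against 4.95 to 5.27 and 4.89 to 5.41. App had 904 to 1268 FPKM in dTgDox, 333 to 581 in dTg and 428 to 581 in Ct. Prnp was also higher in dTgDox, with 1095 to 1688 FPKM, against 294 to 451 in dTg and 356 to 473 in Ct. The part of these differences in the low dTgDox level of AA465934 was not tested.

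Within Ct, no cell type or region list followed the 2 levels. The high and low Ct libraries overlapped in the mean of each of 13 marker lists, covering neurons, glia, vessels, blood, choroid plexus and 4 other brain regions. Hippocampal markers averaged 1.03 to 1.37 in the high Ct libraries and 0.88 to 1.17 in the low ones, and cortical excitatory markers 4.90 to 5.41 and 4.89 to 5.12. The mean over 5 genes from the chromosome 12 region where a Camk2a-tTA driver line is reported to have inserted (Vipr2, Ptprn2, Ncapg2, Esyt2 and Wdr60) was 2.32 to 2.53 in the high and 2.57 to 2.75 in the low Ct libraries, although none of the 5 genes separated them by itself. The labels name no litter, cage or flow cell for a library, so a relation of the levels to any of these was not tested.

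The first question about the neighbourhood was whether protein-coding genes near AA465934 shared its 2 levels in Ct. They did not do so by any margin near its own. Of 63 protein-coding genes within 2 Mb, 39 passed the filter, and 24 did not, 1 of which was listed at 0 in every library. Among the 39, the high and low Ct libraries did not overlap in 7 genes (17.9%), against 9.09% of all 14537 protein-coding genes that passed. In 2 of them (5.13%, background 5.14%) the high libraries lay above the low ones, as for AA465934, and in 5 (12.8%, background 3.96%) they lay below. Of these 5, Ccl5 was below 0.5 FPKM in every Ct library and passed the filter only through dTg libraries. The widest gap among the 7 genes was 0.22 on the log2 scale, against 2.69 for AA465934. Because the Ct libraries were divided by the AA465934 value, none of these differences was tested. Leaving out Ct replicate 3 raised the count to 14 of 39, beside a background of 20.6%. Leaving out any other Ct library gave 7 to 9 of 39, beside backgrounds of 14.6% to 20.7%. Without Ct replicate 5 there were 7 (17.9%), below the background of 19.4%.

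The 2 neighbours with the direction of AA465934 were Rad51d (chromosome 11, 82876434 to 82890614), a gene of homologous recombination, and Appbp2 (85187262 to 85235130), which binds the amyloid precursor protein. Rad51d had 6.96, 8.85 and 7.81 FPKM in the high Ct libraries (replicates 3 to 5) and 5.45, 6.79 and 6.86 FPKM in the low ones (replicates 1, 2 and 6), a gap of 0.02. Appbp2 had 21.6, 21.6 and 20.98 FPKM in the high and 20.2, 18.6 and 19.9 FPKM in the low Ct libraries. These ranges touch or nearly so, and neither gene showed 2 distinct levels.

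In the opposite direction were Mmp28, a secreted metalloproteinase, Ccl5, a chemokine, Dhrs11, a short-chain dehydrogenase, Lig3, the DNA ligase of single-strand break repair, and Slfn2, a Schlafen family member. Mmp28 (83440768 to 83463071) had the widest gap, with 0.870, 0.601 and 0.810 FPKM in the high and 1.10, 1.20 and 1.16 FPKM in the low Ct libraries. Ccl5 (83525778 to 83530518) had 0.0928, 0.275 and 0.0847 FPKM in the high and 0.367, 0.395 and 0.417 FPKM in the low Ct libraries. The gaps of the other 3 were 0.08 for Dhrs11, 0.06 for Lig3 and 0.004 for Slfn2.

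Ap2b1, close to AA465934, did not separate the high from the low Ct libraries. It had 73.8, 69.6 and 65.8 FPKM in the high and 69.4, 74.9 and 62.6 FPKM in the low Ct libraries, and 64.0 to 71.3 FPKM in dTgDox, against 51.3 to 79.1 in dTg. Its values overlapped between high and low Ct libraries, and it was not called in a comparison of the groups. Of the other nearest genes past the filter, Slfn5, Unc45b (a myosin chaperone), Nle1 (a ribosome assembly factor), Fndc8, Rasl10b (a Ras-like protein) and 1700020L24Rik overlapped as well. Slfn14, the nearest gene upstream, did not pass the filter. The Schlafen and CC chemokine families fill much of the window and were scarcely expressed: 2 of 8 and 4 of 11 members passed the filter, with no value above 2.41 FPKM in the first family or 6.46 FPKM in the second.

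The second question was whether the neighbours differed between groups, which the choice of AA465934 had not used for them. In limma on log2(FPKM + 0.5), with Benjamini-Hochberg adjustment over 19186 genes, 5 of the 39 neighbours (12.8%) were called in dTgDox against dTg, beside 8.63% of all protein-coding genes tested. Of these, 2 (5.13%, background 4.86%) were higher in dTgDox, Ccl6 and Wfdc17, and 3 (7.69%, background 3.76%) were lower, Rad51d, Myo19 and Mrm1. Against Ct, 3 neighbours (7.69%, background 8.44%) were called, and in dTg against Ct none was, with a background of 0.0%. At an unadjusted p below 0.05 in limma, 1 of the 39 neighbours and 1.78% of protein-coding genes differed in dTg against Ct, and no other tool was run. The median log2 difference of the 39 neighbours was -0.10 in dTgDox against dTg, and that of all protein-coding genes was -0.015.

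Ccl6, a chemokine of myeloid cells, had 6.46, 2.60 and 2.78 FPKM in dTgDox, against 0.604 to 1.52 FPKM in dTg, with a median of 1.39, and 0.839 to 1.88 in Ct, with a median of 1.36. It was above every other library in all 3 dTgDox libraries. The log2 difference was 1.27 (SE 0.27, limma adjusted p = 0.00929) against dTg and 1.17 (SE 0.27, limma adjusted p = 0.0166) against Ct. Wfdc17, a secreted protein of macrophages, had 0.924, 0.607 and 1.53 FPKM in dTgDox and 0.0974 to 0.570 FPKM in dTg, with 0.213 to 0.806 in Ct (limma adjusted p = 0.0469 against dTg). Markers of plaque-associated microglia averaged 2.36 to 4.29 on the log2 scale in dTgDox, against 0.96 to 1.93 in dTg and 1.62 to 2.07 in Ct. Their part in these differences was not tested.

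Myo19, a myosin of mitochondria, had 1.40, 1.53 and 1.77 FPKM in dTgDox, against 2.26 to 3.98 in dTg and 2.15 to 4.07 in Ct. All 3 dTgDox libraries lay below all others, with a log2 difference of -0.75 (SE 0.17, limma adjusted p = 0.0152) against dTg and -0.68 (SE 0.18, limma adjusted p = 0.0284) against Ct. Mrm1, a methyltransferase of mitochondrial ribosomal RNA, had 6.42, 4.74 and 5.67 FPKM in dTgDox and 9.54 to 15.6 in dTg, while Ct ranged from 6.14 to 17.6 (limma adjusted p = 0.0458 against dTg). Rad51d had 6.22, 6.01 and 6.14 FPKM in dTgDox and 6.98 to 10.02 in dTg, with a log2 difference of -0.42 (SE 0.12, limma adjusted p = 0.0406). It was the only protein-coding neighbour whose 10 high libraries all lay above its 6 low ones by the AA465934 division, by 0.02 on the log2 scale.

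Leaving out dTg replicate 1 gave 7 called neighbours in dTgDox against dTg and 4 against Ct, beside backgrounds of 21% and 21.9%. The genes added against dTg included Dusp14, a phosphatase named after its values were seen, which had 18.1, 17.7 and 16.9 FPKM in dTgDox, 8.97 in dTg replicate 1, 46.8 to 67.8 in dTg replicates 2 to 7 and 44.8 to 66.0 in Ct. Its limma adjusted p against Ct was 0.0429 with all libraries. Leaving out any dTgDox library, dTg replicates 2 to 7 in turn, or Ct replicate 2 or 3 reduced the 5 calls against dTg to between 0 and 3. The backgrounds were 3.04% to 4.61% without a dTgDox library and 6.4% to 8.54% without these dTg or Ct libraries. The calls against Ct fell to 0 or 1 without any 1 dTgDox library (backgrounds 3.39% to 4.48%) or Ct replicate 1 (background 6.36%).

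**Figure D3:**
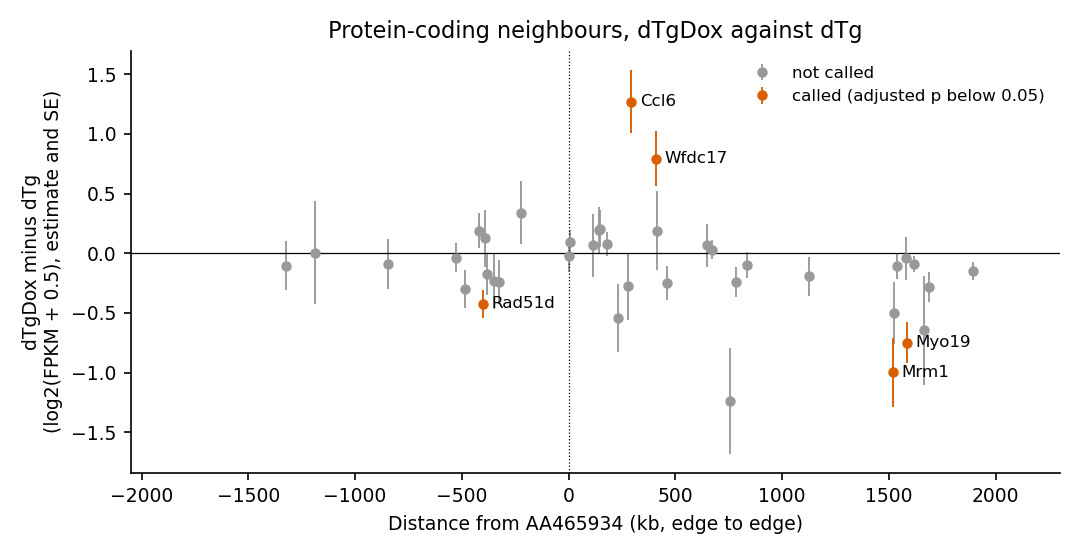
Log2 difference of the 39 protein-coding neighbours that passed the filter, dTgDox minus dTg, with the standard error of the fit as bars, by distance from AA465934 in kb. Orange points are the 5 called genes, which lie on each side of AA465934 and in each direction, from 1.27 for Ccl6 to -0.998 for Mrm1. The dotted line at 0 kb marks AA465934.

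Elsewhere in the genome, no protein-coding gene had a gap between the high and low Ct libraries close to that of AA465934. The values of AA465934 had set this division. A gap of at least 1 on the log2 scale was found in 2 of 14537 (0.0138%), Drc3 and Lyrm7, both with the high libraries below the low ones and both on chromosome 11. At a gap of at least 0.3, there were 54 genes (0.371%). They made up 1.19% of the protein-coding genes of chromosome 11 (14 of 1177) and 0.299% of those elsewhere (40 of 13360). The share of genes whose high Ct libraries lay below the low ones was 6.03% on chromosome 11 and 6.48% on chromosome 8, the highest share of any chromosome.

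The 10 protein-coding genes with the widest gap in the direction of AA465934 had gaps of 0.38 to 0.85, and 3 of them lay on chromosome 11. Nsun3, a methyltransferase of mitochondrial transfer RNA, led them, with 4.18, 4.62 and 4.44 FPKM in the high and 1.55, 2.09 and 2.0 FPKM in the low Ct libraries. In dTgDox, however, it had 6.50, 3.42 and 3.93 FPKM, against 2.24 to 5.93 in dTg, so its dTgDox libraries did not share the low Ct level. Drd5, a dopamine receptor, had 1.38 to 1.47 FPKM in the high and 0.679 to 0.777 in the low Ct libraries. It was higher in dTgDox, at 3.50, 4.27 and 3.23 FPKM, than in dTg, at 0.142 to 1.32 FPKM, the opposite of AA465934, with a log2 difference of 1.84 (SE 0.30, limma adjusted p = 0.00187). Drd5 was the only 1 of the 10 called in that comparison, beside 8.63% of all protein-coding genes. Without dTg replicate 1, the library with cerebellar markers, 2 of the 10 were called, beside a background of 21%. The added gene was Sfrp1, a secreted Wnt inhibitor, which ran in the direction of AA465934. It had 2.35, 1.74 and 3.16 FPKM in dTgDox, 1.31 in dTg replicate 1 and 3.799 to 5.84 in dTg replicates 2 to 7, with 6.05 to 7.47 in the high and 2.78 to 3.63 in the low Ct libraries. Its log2 difference against dTg was -0.67 (limma adjusted p = 0.279) with all libraries and -0.90 (limma adjusted p = 0.0239) without dTg replicate 1, and the adjusted p was 0.0239 to 0.575 over all alternatives. The others were Vill (a villin-like protein), B230217C12Rik, Dhrs7b, Lcp2 (an adaptor of immune receptors), Myocos, Vegfd (a vascular growth factor) and Slc7a3 (a cationic amino acid transporter).

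In the opposite direction the 10 widest gaps were 0.58 to 1.10, and 7 of these 10 genes lay on chromosome 11. Drc3 (60353329 to 60394341), a subunit of the dynein regulatory complex of cilia, had 1.92, 2.03 and 1.43 FPKM in the high and 4.93, 6.94 and 7.09 FPKM in the low Ct libraries. Lyrm7 (54826866 to 54860916), an assembly factor of mitochondrial complex III, had 3.15, 3.94 and 3.37 FPKM in the high and 8.77, 13.0 and 11.5 FPKM in the low Ct libraries. Pttg1 (43420250 to 43426251), the securin of chromosome segregation, had 0.508, 16.4 and 16.4 FPKM in the high and 31.6, 42.8 and 34.9 FPKM in the low Ct libraries, and 18.2 to 40.3 FPKM in all dTg and dTgDox libraries. Rpl26, a ribosomal protein whose near-identical copies in the genome make its counting uncertain, had 152 to 157 FPKM in the high and 238 to 374 in the low Ct libraries. It had 436.4, 448.5 and 440.0 FPKM in dTgDox, against 163 to 316 in dTg, so that it was higher in dTgDox as in the low Ct libraries. It was the only 1 of these 10 called in dTgDox against dTg, beside 8.63% of all protein-coding genes. Its log2 difference there was 0.98 (SE 0.28, limma adjusted p = 0.0437). Rpl26 was called against Ct as well (log2 difference 1.06, SE 0.28, limma adjusted p = 0.0353). The call against dTg held under 12 of 23 alternatives, with an adjusted p of 0.0232 to 0.143, and was lost with no filter, with quantile normalization, with the replicate block, without any 1 dTgDox library, without dTg replicate 2, 3, 4 or 7 and without Ct replicate 1. The rest were Clec3b (tetranectin), Igtp and Irgm2 (interferon-induced GTPases with overlapping annotations), Pigz (a mannosyltransferase of membrane anchors), Mrpl55 (a mitochondrial ribosomal protein) and 1700102P08Rik.

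**Figure D4:**
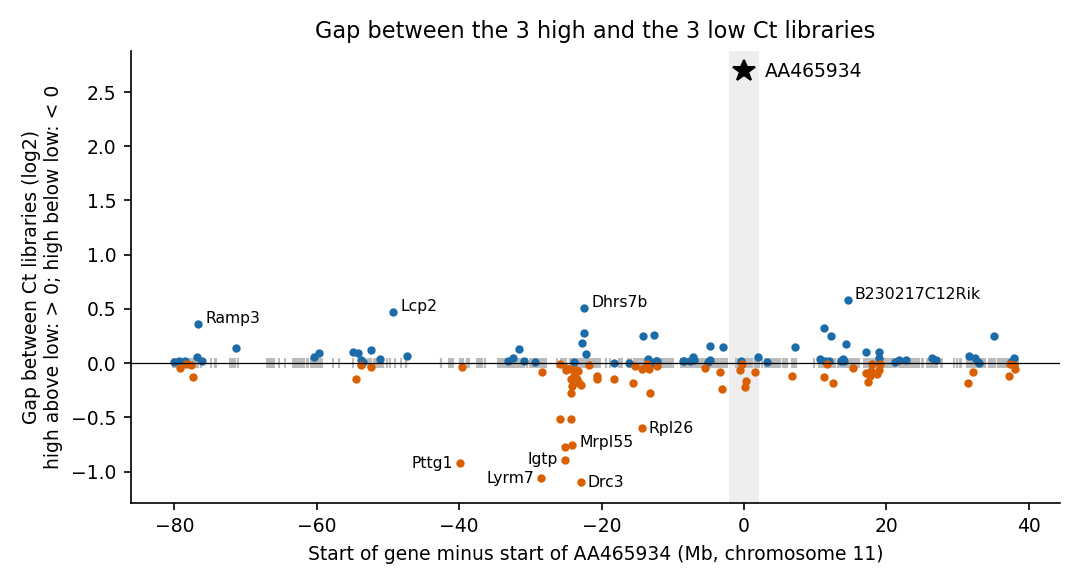
Gap between the 3 high and the 3 low Ct libraries on the log2(FPKM + 0.5) scale for the protein-coding genes of chromosome 11 that passed the filter, by the distance of their start from that of AA465934 in Mb. Blue points are genes with all high libraries above the low ones, orange points those with all high libraries below, grey ticks genes whose libraries overlapped, and the grey band the 2 Mb window. AA465934, whose own values set the division, is the star at 2.69. The orange points of 0.5 and more gather between 14.4 and 28.5 Mb before AA465934, apart from Pttg1.

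Of the 14 protein-coding genes of chromosome 11 with a gap of at least 0.3, 9 lay in 1 stretch at a distance from AA465934 and 5 lay outside it. In the bin from 55 to 60 Mb, 17 of 49 protein-coding genes (34.7%) had all high Ct libraries below the low ones, beside 3.96% over the genome. Among 279 bins of 5 Mb with at least 20 genes it ranked 1, and the next, at 30 to 35 Mb of chromosome 8, had 22.7%. In the 5 Mb before AA465934 the share was 7.69% and in the 5 Mb after it 5.08%. Counting genes of every class, 14 genes with a gap of at least 0.3 started between 28.5 and 14.4 Mb before AA465934, among 171 genes that passed the filter there. The share over the genome at this gap, 0.371%, is for protein-coding genes alone, so the 2 are not alike. This stretch and its genes were chosen after their values were seen. Of the 14, 9 were protein-coding, 11 had the high Ct libraries below the low ones and 3 above.

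Outside the small RNAs, the widest of these gaps was that of 2610507I01Rik (59199836 to 59202385, - strand), a noncoding gene next to Mrpl55. It had 0.218, 0.320 and 0.337 FPKM in the high and 3.91, 4.23 and 4.32 FPKM in the low Ct libraries. Mrpl55 (59202486 to 59206134) had 13.0, 13.3 and 13.3 FPKM in the high and 22.8, 26.0 and 24.9 FPKM in the low Ct libraries. Dhrs7b (60830631 to 60860195), a dehydrogenase of peroxisomal lipid synthesis, ran the other way, with 16.2, 16.6 and 16.6 FPKM in the high and 10.9, 11.2 and 10.9 FPKM in the low Ct libraries. In all 3 genes the replicates within a level lay close together. Gm44313, a microRNA gene inside the span of Hist3h2a, had the widest gap of all 14, with 49.4, 53.3 and 62.6 FPKM in the high Ct libraries and a listed 0 in all the low ones, while Hist3h2a had 7.96 to 10.4 FPKM in the high and 15.1 to 19.8 in the low Ct libraries. Reads of these overlapping genes cannot be told apart without strand. The others were Fam114a2, Igtp, Irgm2, Hist3h2a, Lyrm7, Drc3, Rpl26, 4933439C10Rik, Gm12279 and 2810001G20Rik.

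In none of these 14 genes were all 10 high libraries apart from all 6 low ones, as they were for AA465934. In 12 of the 14 the dTgDox and dTg libraries overlapped. They did not in Rpl26 or in Hist3h2a, a histone gene, both higher in dTgDox as in the low Ct libraries. The share of all genes whose dTgDox and dTg libraries do not overlap is not given here, so nothing is concluded from this count. Hist3h2a had 23.0, 22.0 and 19.9 FPKM in dTgDox, against 11.4 to 18.0 in dTg, with a log2 difference of 0.61 (limma adjusted p = 0.104) and, without dTg replicate 1, of 0.67 (limma adjusted p = 0.0434). Over all alternatives its adjusted p was 0.0434 to 0.30. In dTgDox, where AA465934 was low throughout, 2610507I01Rik had 2.28, 4.07 and 3.85 FPKM. In dTg, where AA465934 was high throughout, it had 3.66, 1.66, 0.137, 1.95, 3.94, 2.42 and 3.42 FPKM in replicates 1 to 7. Its dTg values thus ran from the level of the high Ct libraries (replicate 3) to that of the low ones (replicate 5), while AA465934 was above 40 FPKM in both. Of the 14 genes, 12 lay at or beyond the level of the low Ct libraries in dTg replicate 5, 8 in replicate 7 and 7 in replicate 1, but 0 in replicates 2 and 3, 1 in replicate 4 and 2 in replicate 6. In dTgDox replicates 1 to 3 the numbers were 5, 9 and 7. At or beyond the level of the high Ct libraries there were 3 of the 14 genes in dTg replicate 3 and at most 1 in any other dTg or dTgDox library. Most of the genes in dTg replicates 2, 3, 4 and 6 (13, 11, 13 and 12 of 14) lay between the 2 Ct levels.

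**Figure D5:**
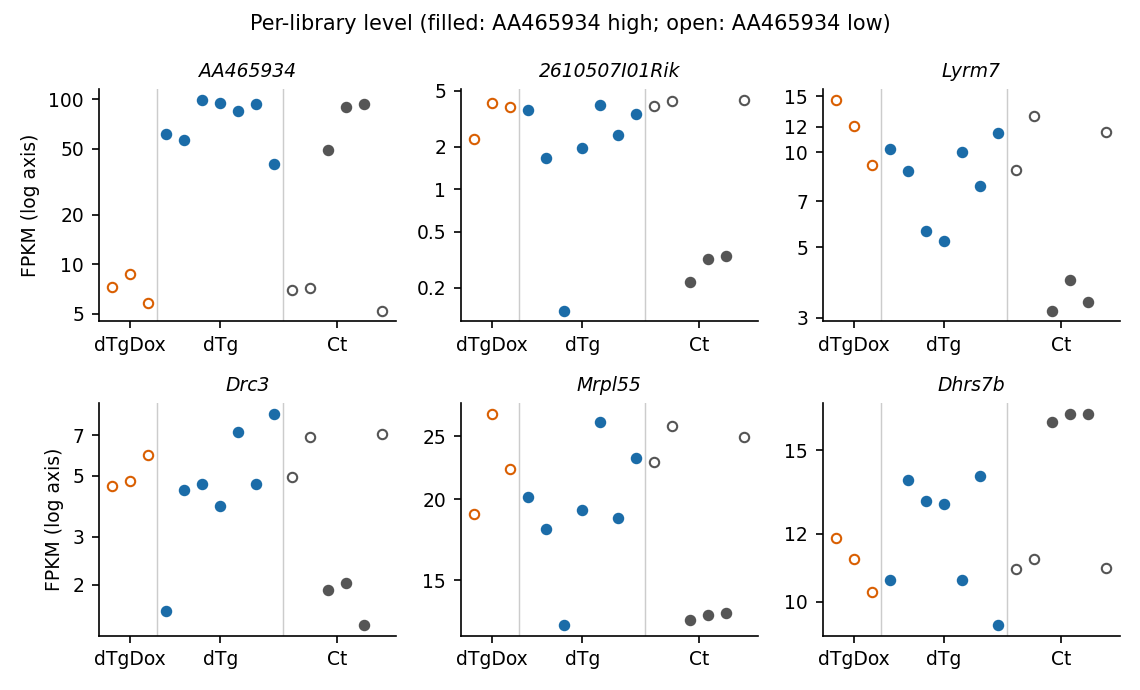
FPKM on a log axis for AA465934 and 5 genes of the chromosome 11 stretch in every library, with dTgDox, dTg and Ct from left to right and replicates in order of number within a group, filled where AA465934 was high and open where it was low. Filled and open points are apart in Ct in all 6 panels, and in the 5 genes other than AA465934 the filled dTg points spread over much of the Ct range, from 0.137 to 3.94 FPKM for 2610507I01Rik.

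Over all 16 libraries, few genes shared the division. Besides AA465934 itself, 9 genes had all 10 high libraries above all 6 low ones, so that 10 of 19186 (0.0521%) did so, and the likeness was the gap between them on the log2 scale. The widest gap after the 2.15 of AA465934 was 0.15, for Crat, the carnitine acetyltransferase. It had 20.6, 20.6 and 18.9 FPKM in dTgDox, 26.5 to 31.4 in dTg, 25.4 to 31.9 in the high and 20.3 to 22.8 in the low Ct libraries. Ramp3, a receptor activity-modifying protein, came next with a gap of 0.11 and had 3.64, 6.09 and 5.58 FPKM in dTgDox, 10.2 to 14.7 in dTg, 12.2 to 14.8 in the high and 7.67 to 9.39 in the low Ct libraries. The other 7 were Nbn (a DNA break sensor), A730081D07Rik, Sycp1 (of the synaptonemal complex), Esrrb (a nuclear receptor), Rad51d, Cxxc4 (a zinc finger protein) and Cdkl1 (a kinase), with gaps of 0.09 or less. None of the 9 had 2 levels as far apart as those of AA465934, whose own values set the division.

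In mirror image, with all high libraries below the low ones, there were 6 genes (0.0313%). Gm22208, a small nuclear RNA gene, was listed at 0 in all 10 high libraries and had 14.2, 23.7 and 13.5 FPKM in dTgDox and 25.4, 13.1 and 14.98 FPKM in Ct replicates 1, 2 and 6. The number of reads behind these values is not known. Pisd-ps1, a pseudogene of a mitochondrial lipid enzyme, had 99.9, 132 and 160 FPKM in dTgDox, 28.7 to 53.3 in dTg, 35.2 to 40.3 in the high and 56.5 to 62.3 in the low Ct libraries, and its related copies in the genome make the counting uncertain. The other 4 were Gm11449, Mfsd8 (a lysosomal transporter), Emx2os (antisense to Emx2, whose reads cannot be told apart from those of Emx2 without strand) and ENSMUSG00000064168, with gaps of 0.01 to 0.10.

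The last question was whether genes that separated the high from the low Ct libraries also differed between dTgDox and dTg. That choice had not used the dTgDox and dTg values, but the fit took its spread from Ct as well. Of the 747 protein-coding genes with the high Ct libraries above the low ones, 34 (4.55%) were higher and 29 (3.88%) lower in dTgDox, beside 4.86% and 3.76% of all protein-coding genes. Of the 575 with the high Ct libraries below, 29 (5.04%) were higher and 16 (2.78%) lower. These shares were near the background in both sets. The Ct libraries that chose these genes entered their standard errors, and a wide Ct split makes a call less likely. No conclusion is therefore drawn from calls of genes chosen by their Ct gap, here or above. The median log2 difference, which does not use the spread, was -0.009 in the first set and 0.020 in the second. It was -0.015 for all protein-coding genes. Neither Drc3 nor Lyrm7, the 2 genes with a gap of at least 1, was called, with log2 differences of 0.14 (SE 0.46) and 0.50 (SE 0.40), and neither had an unadjusted p below 0.05 in limma. Without dTg replicate 1 the second set had 66 higher (11.5%) and 28 lower (4.87%), beside 10.4% and 10.6% of all protein-coding genes, and the first had 59 (7.90%) and 73 (9.77%).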

How the data were processed

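PolyA-selected RNA from frontal cortex was sequenced from 1 end, per the labels' protocols, and the submitters' processing notes name TopHat2 and DESeq. The genome build, annotation, quantifier and tool versions are not known from the sources used here. The authors deposited 1 value per Ensembl gene, and these behave as FPKM: in single-exon genes they step by a constant divided by gene length. AA465934, its lists and its comparisons were chosen with earlier results of these data known. Symbols and coordinates were joined from GENCODE M21 (GRCm38) for 45139 of 46073 identifiers, and 934 had none.

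Values were analysed as log2(FPKM + 0.5). The added 0.5 understates differences of low genes. limma 3.58.1 in R 4.3.3 was fitted with 1 mean per group over 16 libraries, with a trend and robust moderation, for the 19186 genes at or above 0.5 FPKM in 3 or more libraries. P-values were two-sided, adjusted by Benjamini-Hochberg over all genes, with a threshold of 0.05. The labels do not say that samples are separate animals, so p-values measure the spread between these samples. The header names of dTg replicates 5, 6 and 7 (dTg_616_1, dTg_616_2 and dTg_616_2a) share a number, whose meaning is not given. The gap of a gene is its lowest library in the upper set minus its highest in the lower set. High and low Ct libraries were defined by AA465934, so counts between them carry no test and are set beside the share of all genes. Named genes were AA465934, Snord7, the 5 nearest genes on each side, neighbours within 2 Mb that separated Ct or were called in dTgDox against dTg with all libraries (at most 12), the 10 widest Ct gaps in each direction, and the genes most like AA465934 over 16 libraries. Alternatives were 2 other pseudocounts, 2 other filters, quantile normalization, moderation without the robust option, a replicate block, 2 other windows and leaving out each library. A gap of 0.3 was added after the data were seen. The fit was tested on simulated data. A gene that the naming rule covers is not reported here.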

Additional observations from a re-analysis of the deposited data

Results flagged for a closer look

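Among the genes named above, 96 sets of dTg or Ct libraries were tested for 1 value far from the rest, and 17 had such a value, where chance flags about 1 in 20. AA465934 itself had none within dTg or Ct, but its values had set the 2 levels, so nothing is concluded from this. In dTg replicate 1, the library with cerebellar markers, Snord7 was listed at 0, against 15.5 to 99.7 FPKM in the other dTg libraries. In the same library Nle1 had 14.3 FPKM (others 7.87 to 10), Rasl10b 34.7 (87.8 to 112) and Dhrs11 10.9 (3.10 to 5.24). Nbn had 8.16 FPKM there (others 6.15 to 6.93), Sycp1 8.86 (0.463 to 2.04), Esrrb 2.74 (0.540 to 0.929) and Fam114a2 19.6 (9.87 to 12.8). Elsewhere in dTg, Cxxc4 had 9.80 FPKM in replicate 5 (others 7.23 to 8.00) and Wdr60 had 4.92 in replicate 7 (1.99 to 2.88). The dTg replicate 3 library was apart in 2 genes of the chromosome 11 stretch, 2610507I01Rik at 0.137 FPKM (others 1.66 to 3.94) and Gm12279 at 4.31 (1.80 to 2.38).

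In Ct, Snord7 was listed at 0 in replicate 4, against 14.97 to 17.9 FPKM in the others. The remaining flags were all in Ct replicate 2, a library with low AA465934: Dhrs11 at 4.97 FPKM (others 3.17 to 3.72), Ptprn2 at 90.3 (38.5 to 49.5), Ncapg2 at 0.887 (0.522 to 0.645) and Esyt2 at 9.99 (5.16 to 5.97). Ptprn2, Ncapg2 and Esyt2 belong to the 5 genes at the reported driver insertion site on chromosome 12. In the other low Ct libraries, replicates 1 and 6, Ptprn2 had 41.4 and 38.5 FPKM, Ncapg2 0.527 and 0.645, and Esyt2 5.39 and 5.64. The part of replicate 2 in the mean of the 5 genes was not tested.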

How the results depend on the processing

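The gap between the 2 levels of AA465934 was 2.15 to 2.43 on the log2 scale when each library was left out in turn. Its own values set the levels, and leaving out a library can only keep or widen the gap, so this is a description. Called neighbours in dTgDox against dTg numbered 5 of 39 with all libraries (background 8.63%) and 3 of 62 with no filter (background 5.93%). With 1 library left out they numbered 0 to 7, beside backgrounds of 3.04% to 21%. In dTgDox against Ct they numbered 3 with all libraries (background 8.44%) and 0 to 4 with 1 left out (backgrounds 3.39% to 21.9%). In dTg against Ct there were 0 in limma in each of these, beside 0 of 14537 protein-coding genes. With the replicate number as a block, neighbours called were 0 against dTg, 0 against Ct and 0 in dTg against Ct, with backgrounds of 2.83%, 3.24% and 0.0% and with 7, 6 and 1 neighbours at an unadjusted p below 0.05 in limma. The numbers are not known to pair samples: deviations of same-numbered libraries correlated at -0.145 to 0.105.

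Genes with a Ct gap of at least 1 numbered 2, but 6 with 0.1 added to FPKM, 0 with 1 added, and 2 to 5 with 1 library left out, and 54 had a gap of at least 0.3. Neighbours that separated Ct numbered 7 of 39 and, within 5 Mb, 13 of 111, beside 9.09% of all protein-coding genes. With 1 library left out they numbered 7 to 14 of 39, beside backgrounds of 9.09% to 20.7%. Of the 2 genes with a gap of at least 1, 0 were called in limma with any 1 library left out. With all libraries, 0 had an unadjusted p below 0.05 in limma. No other tool was run, and the Ct spread that chose these genes also entered their standard errors. Of 1674 combinations of a named gene and a setting, 1589 gave the same call, 74 lost it, 11 gained it and 0 reversed. Depth is unknown, which limits values under about 1 FPKM and those of small RNAs most.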
